A study of Mus musculus with 2 samples.

Results

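Sites listed only in the knockout are genome positions at which m6A was listed in mouse embryonic stem cells without Mettl3 (KO) and not in wild-type (WT) cells. They were chosen by the listings themselves: a position on a strand had to stand in at least 2 of 7 KO lists, in none of 7 WT lists and in none of 3 lists from the comparison of WT with KO. Of the 25028 positions in at least 2 KO lists, 3122 met this rule (12.5%), and the 17 lists held 160430 positions in all. They are called KO-only sites here. With WT and KO exchanged, the same rule took 12393 of 44558 positions (27.8%), the WT-only sites used for comparison. A further 16909 positions stood in at least 2 lists of each library and are called shared sites. These counts follow from the rule and carry no test. Below, a WT position is a position in any WT or comparison list, and a KO position is one in any KO list.

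Poly(A) RNA of mouse 129 embryonic stem cells was sequenced as native RNA through nanopores, with 1 WT library and 1 KO library. The KO cells lack exons 5 to 7 of Mettl3 on both alleles, where genome editing had put drug resistance markers in their place. By mass spectrometry the paper found almost no m6A in mRNA of the KO cells. It proposes that false positives are prevalent among the sites that tools report in KO. A listing in KO is therefore the call of a tool here and not a measured m6A. Tombo, MINES, Nanom6A, m6Anet and xPore read the electric current, ELIGOS and Epinano read base-calling errors, and each gave a list per library, whereas Nanocompore, DiffErr and DRUMMER each gave a list from WT against KO. The lists hold positions alone, with no score, rate or coverage, so the number of reads behind each site cannot be read from them.

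METTL3, with its partner METTL14, adds a methyl group to adenosine in the nucleus, mainly within the sequence RRACH (R is A or G, H is A, C or T). The mark is known to be dense near stop codons and in long last exons, and YTH proteins that bind it direct many transcripts to decay. In mouse embryonic stem cells it is known for limiting how long pluripotency transcripts persist, and a tool can list a site only on a transcript that was present and read.

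Mettl3 itself held no KO-only site. At least 1 list gave a WT position at 13 of its bases and a KO position at 5, and in the replaced exons the numbers were 2 in WT and 0 in KO. All 5 KO positions lay in exons 8, 10 and 11, downstream of the replacement.

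Markers of the cell type were listed in both libraries. Of 20 embryonic stem cell markers, 19 had a position (Lin28a had none) and 17 had one in KO, with 375 positions summed over the list in WT and 278 in KO, where all genes together had 128735 and 107265. Esrrb, a nuclear receptor of the naive state, was the top gene with 50 WT and 38 KO positions, while Klf5 had 14 and 0 and Sall4 1 and 0. None of the 17 held a KO-only site, against 22.1% of all genes with a KO position. Feeder fibroblast markers had positions in 5 of 10 genes, 113 in WT and 91 in KO, led by the fibronectin gene Fn1 (76 and 56). Collagen gene Col1a1 had 3 KO positions and none in WT, and Col1a2, Col3a1, Dcn, Lum and Postn were at 0 in both. Primitive endoderm markers had 61 WT and 16 KO positions in 3 of 7 genes, with Col4a1 on top (27 and 16), Sox17 and Lama1 at 0 in KO, and Gata4, Gata6, Pdgfra and Dab2 at 0 in both. For trophoblast the numbers were 67 and 29 in 4 of 7 genes, with Krt18 on top (31 and 12), Eomes at 0 in KO and Cdx2, Elf5 and Hand1 at 0 in both, and for neural markers 6 and 4 in 2 of 6 genes, with all 4 KO positions in Tubb3, Nes at 0 in KO and Sox1, Pax6, Zic1 and Map2 at 0 in both. None of these lists held a KO-only site, and the part of other cell types in the results below was not tested. Fewer cells of a type and less RNA per cell cannot be told apart in such libraries.

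KO-only sites were mostly listed by the smallest number of tools the rule allows. Exactly 2 lists gave 2917 of them (93.4%), 3 lists gave 200, 4 lists gave 4 and 5 lists gave 1, and no KO-only site stood in 6 or 7 lists. Among WT-only sites 8842 (71.4%) stood in exactly 2 lists, 223 in 6 and 30 in all 7. Just outside the rule lay 28263 positions that a single KO list gave and no WT or comparison list did. Together with the KO-only sites they make 31385 of the 107577 KO positions (29.2%).

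Tombo, which tests the current against its model of unmodified bases, listed 2792 KO-only sites (89.4%). It also listed 83.2% of WT-only sites, and its list held 68039 of the 107577 KO positions. MINES, a classifier that takes the output of Tombo, listed 1547 KO-only sites (49.6%, against 26.5% of WT-only sites), and the error-based Epinano listed 1029 (33.0%, against 68.9%). Nanom6A and m6Anet, both trained classifiers, followed with 527 (16.9%) and 430 (13.8%). ELIGOS gave 109 and xPore, which was run on both libraries together, gave 21.

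The pair of Tombo and MINES alone accounted for 1340 KO-only sites (42.9%), against 1419 WT-only sites (11.5%). The order turned for Tombo with Epinano, a pair across both principles, which gave 740 KO-only sites (23.7%) and 4694 WT-only sites (37.9%). Tombo with Nanom6A gave 266, Tombo with m6Anet 213, and Nanom6A with m6Anet, which align the current by different programs, 106. Of the positions that only KO lists gave, Tombo and MINES shared 1488, which is 7.64% of those of Tombo and 63.6% of those of MINES. Current-based tools alone listed 2002 KO-only sites (64.1%), error-based tools alone listed 14, and both kinds listed 1106 (35.4%). For WT-only sites the share with both kinds was 72.1%. Most KO-only sites thus rested on tools that read the same signal, and in the most frequent pair 1 tool used the output of the other. Nanom6A also starts from current that Tombo has assigned to bases, so its pair with Tombo shares that step.

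The sites with most lists are shown here, taken by number of lists and then in genomic order up to 10. The first 5 are the KO-only sites in 4 or 5 lists, and the other 5 are the first in genomic order of the 200 in 3 lists. Each is given with 10 bases on either side on the strand of the transcript (mm10), with the RRACH 5-mer centred on the listed adenosine in capitals.
Nt5c2: gggtgggaGGACTccatcaga
G430095P16Rik: accctgaaGGACCatcaaaga
Megf11: aaatgctgGGACAcgtgagct
2410018L13Rik: aggcagatGGACAcaaacaat
Cdca2: tagattggGAACTgaaccgtt
Fam178b: agcctgctGGACCacctcctt
Map4k4: gcaggggtGGACCactgtggg
1700066M21Rik: ctgcatccAGACTcccggggt
Raph1: tcttaacaGGACAttgcagcg
Adam23: catctgggGGACAagtaggtg

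The site of Nt5c2, a nucleotidase of purine metabolism, was the only KO-only site in 5 lists (Tombo, MINES, Nanom6A, m6Anet and Epinano). It lies on the minus strand at chr19:46888724 in the last of 18 exons, in the 3′ UTR 96 nt after the stop codon, and the nearest WT position was 52 bp away. Sites in 4 lists lay in the coding sequence of G430095P16Rik (chr8:84726733, plus strand, exon 2 of 2), in the 3′ UTR of Megf11 (chr9:64700775, plus strand, exon 23 of 23), in the long noncoding RNA 2410018L13Rik (chr12:22958366, minus strand, exon 3 of 4) and in the coding sequence of Cdca2 (chr14:67714833, minus strand, exon 3 of 15). Cdca2 encodes a chromatin-bound subunit of protein phosphatase. The other 5 sites stood in 3 lists and lay on chromosome 1, in Fam178b at 36661027 (minus strand, 5′ UTR), in the kinase gene Map4k4 at 40019636 (plus strand, coding), in 1700066M21Rik at 57383986 (plus strand, 3′ UTR), in Raph1, the gene of the actin regulator lamellipodin, at 60488542 (minus strand, coding) and in Adam23 at 63564205 (plus strand, coding). Adam23 was the only 1 of the 10 with a run of at least 5 equal bases within 10 bp. In G430095P16Rik, Megf11, 1700066M21Rik and Adam23 the whole gene was without a WT position.

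GGACT, the 5-mer most typical of m6A, was less frequent among KO-only sites than among WT-only sites, and GGACA was more frequent. GGACT made up 382 of 3122 KO-only sites (12.2%, 95% Wilson interval 11.1% to 13.4%) and 3536 of 12393 WT-only sites (28.5%). The difference was −16.3 percentage points (95% interval −17.7 to −14.9), with a log2 odds ratio of −1.52 and an adjusted p of 1.99e-86 in a two-sided Fisher's exact test. All intervals here cover counting error only, the tests over sites compare lists of 2 libraries and not the conditions, and with 1 library per condition no difference has a replicate check. Neighbouring sites of a gene share its reads, so they are not independent of each other. GGACT was also less frequent than among shared sites (16.3%, a difference of −4.09 points, adjusted Fisher p = 9.34e-09) and more frequent than among all RRACH positions of the same transcripts (7.42%).

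GGACA was the most frequent 5-mer of KO-only sites, at 32.7%, against 19.4% of WT-only sites (13.4 points higher, adjusted Fisher p = 1.48e-53), 28.6% of shared sites and 9.81% of RRACH positions on the transcripts. AGACT, at 11.5%, was lower than in WT-only sites (17.3%, adjusted Fisher p = 1.69e-15) and higher than in shared sites (8.44%). Its difference from WT-only sites passed for Tombo with Epinano (8.78% against 19.4%, adjusted Fisher p = 2.64e-13) and Tombo with m6Anet (11.7% against 26.7%, adjusted Fisher p = 1.87e-05). It did not pass for Tombo with MINES (15% against 18.7%, adjusted Fisher p = 0.0539) or Tombo with Nanom6A (12.4% against 17.6%, adjusted Fisher p = 0.1865). Nor did it for Tombo with MINES and Epinano (10.6% against 10.9%). The 5-mers with an A before the methylated base, a split made after seeing the data, formed 24.5% of KO-only and 14.9% of WT-only sites (9.65 points higher, adjusted Fisher p = 1.80e-34), with AAACA at 4.64% against 1.71% and AAACC at 3.04% against 1.06%. Sites of exactly Tombo and MINES, and those of Tombo, MINES and Epinano, held 0 of them in both sets. For Tombo with Epinano the gap was 28.1 points (42.6% against 14.5%, adjusted Fisher p = 1.30e-62). It was 17.8 points for Tombo with Nanom6A (adjusted Fisher p = 2.25e-05) and 21.0 points for Tombo with m6Anet (adjusted Fisher p = 4.70e-09). Against shared sites these 5-mers were lower in KO-only sites (28.6%, a difference of −4.06 points, adjusted Fisher p = 3.65e-06), and they formed 48.6% of RRACH positions on the transcripts. Of the 18 sequence and location features tested, all 18 passed the threshold of 0.05 against WT-only sites, 11 higher and 7 lower in KO-only sites, and 13 passed it against shared sites, 6 higher and 7 lower. Only 2 KO-only sites had no RRACH on the genome.

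The pair of tools moved with the motif. Within sites of exactly Tombo and MINES, GGACT made up 12.3% of KO-only and 14.1% of WT-only sites, a difference of −1.78 points that did not pass the test (95% interval −4.31 to 0.754, adjusted Fisher p = 0.456). GGACA stayed higher in KO-only sites within this pair, at 60.9% against 53.8% (adjusted Fisher p = 0.00338). It did not pass for Tombo with Epinano, at 9.19% against 8.50% (adjusted Fisher p = 0.557), or for Tombo with m6Anet, at 9.86% against 10.6% (adjusted Fisher p = 1). For Tombo with Nanom6A it was lower in KO-only sites, at 5.64% against 13.4% (adjusted Fisher p = 0.0171). Within exactly Tombo and Epinano the gap in GGACT was wider than over all sites, 8.24% against 36.3% (−28.0 points, adjusted Fisher p = 4.14e-61). Within Tombo and m6Anet it was 30.5% against 30.3% (adjusted Fisher p = 1), and within Tombo and Nanom6A 11.3% against 12.1% (adjusted Fisher p = 0.796). Within Tombo, MINES and Epinano neither GGACT (−6.01 points, adjusted Fisher p = 0.799) nor GGACA (41.6% against 37.3%, adjusted Fisher p = 1) passed. The MINES lists hold almost only AGACT and GGAC followed by A, C or T, which made up 99.9% of the KO-only sites that MINES listed and 26.8% of those that Nanom6A listed. Among these 4 pairs, GGACT thus differed by the test for Tombo with Epinano alone, and whether the pairs differ from each other was not tested.

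KO-only sites were less concentrated near the stop codon than WT-only sites, and more than RRACH positions over whole transcripts. Those RRACH positions were counted whether or not reads covered them. Native RNA is read from its 3′ end, and the part of read coverage in this comparison was not tested. On coding transcripts, 479 of 2952 KO-only sites (16.2%, interval 14.9% to 17.6%) fell within 200 nt of the stop codon, against 3378 of 11963 WT-only sites (28.2%) and 28.7% of shared sites, and 11.1% of RRACH positions on the same transcripts did so. The difference from WT-only sites was −12.0 points (−13.5 to −10.4, adjusted Fisher p = 7.76e-43). Within exactly Tombo and MINES it was −3.39 points (14.1% against 17.5%) and did not pass the test (adjusted Fisher p = 0.0658), and within exactly Tombo and Epinano it was −9.92 points (adjusted Fisher p = 1.04e-08). Tests within the other 3 combinations did not pass: −4.77 points for Tombo with Nanom6A (adjusted Fisher p = 0.316), −6.16 for Tombo with m6Anet (adjusted Fisher p = 0.172) and −10.7 for Tombo with MINES and Epinano (adjusted Fisher p = 0.124).

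Coding sequence held 59.3% of KO-only sites and 45.2% of WT-only sites (14.1 points higher, adjusted Fisher p = 3.82e-42), the 3′ UTR held 35.4% against 51.8% (adjusted Fisher p = 9.44e-57) and the 5′ UTR 5.29% against 2.99% (adjusted Fisher p = 1.69e-08). The largest gap of all features was in the last exon, which held 47.2% of KO-only and 68.5% of WT-only sites (−21.3 points, adjusted Fisher p = 1.52e-103), while RRACH positions of the same transcripts stood at 47.9%. Shared sites were nearer to KO-only sites, with 57.2% in coding sequence (adjusted Fisher p = 0.0427), 39.7% in the 3′ UTR (adjusted Fisher p = 2.09e-05), 3.13% in the 5′ UTR (adjusted Fisher p = 5.59e-08) and 52.7% in the last exon (adjusted Fisher p = 3.85e-08). Within exactly Tombo and MINES, the last exon, the 3′ UTR and coding sequence did not pass the test: the last exon held 43.8% of KO-only and 48.8% of WT-only sites (−4.97 points, adjusted Fisher p = 0.0539), the 3′ UTR 32.2% and 36.9% (adjusted Fisher p = 0.0539) and coding sequence 61.4% and 57.8% (adjusted Fisher p = 0.182). The gap in the last exon passed for Tombo with Epinano (−13.1 points, adjusted Fisher p = 1.02e-11), for Tombo with m6Anet (−26.6, adjusted Fisher p = 2.54e-10) and for Tombo with MINES and Epinano (−16.3, adjusted Fisher p = 0.00547), and not for Tombo with Nanom6A (−8.98, adjusted Fisher p = 0.0928). For the 3′ UTR it passed for Tombo with Epinano (−6.26 points, adjusted Fisher p = 0.00342), Tombo with m6Anet (−28.7, adjusted Fisher p = 4.63e-12) and Tombo with Nanom6A (−12.0, adjusted Fisher p = 0.0195), and not for Tombo with MINES and Epinano (−1.04, adjusted Fisher p = 1). Coding sequence held more KO-only than WT-only sites for Tombo with Epinano (5.37 points, adjusted Fisher p = 0.0105) and Tombo with m6Anet (26.7, adjusted Fisher p = 1.76e-10), and did not pass for Tombo with Nanom6A (9.25, adjusted Fisher p = 0.0908) or for Tombo with MINES and Epinano (−1.01, adjusted Fisher p = 1). The gap in the 5′ UTR did not pass for Tombo with MINES (1.08 points, adjusted Fisher p = 0.486) or Tombo with Epinano (0.886, adjusted Fisher p = 0.254). Nor did it pass for Tombo with Nanom6A (2.73, adjusted Fisher p = 0.1865) or Tombo with m6Anet (1.95, adjusted Fisher p = 0.471). For Tombo with MINES and Epinano it did not pass either (2.05, adjusted Fisher p = 0.799). The median exon that held a KO-only site was 596 nt long, against 1240 nt for WT-only and 471 nt for shared sites, and 48.0% of KO-only sites on coding transcripts lay in coding sequence of exons before the last (28.7% of WT-only and 44.5% of shared sites). The median distance from the transcript end was 1496 nt for KO-only, 1339 nt for WT-only and 1027 nt for shared sites. Location on the transcript was thus near that of RRACH positions over whole transcripts for the last exon and the coding sequence. For the stop codon it was between them and the WT-only sites. RRACH positions in parts that were read could have other shares, which were not taken.

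Distance to exon junctions was looked at after seeing these values. Within 10 nt of a junction lay 8.01% of KO-only sites, 3.31% of WT-only sites (adjusted Fisher p = 4.81e-26), 8.15% of shared sites (adjusted Fisher p = 0.829) and 7.30% of RRACH positions on the transcripts. By pair of tools, the difference from WT-only sites did not pass for Tombo with MINES (8.02% against 6.65%, adjusted Fisher p = 0.549) or Tombo with Nanom6A (11.9% against 8.85%, adjusted Fisher p = 0.267), and it passed for Tombo with Epinano (5.01% against 2.65%, adjusted Fisher p = 0.00126) and Tombo with m6Anet (13.4% against 5.55%, adjusted Fisher p = 0.000653), as for Tombo with MINES and Epinano (6.31% against 1.25%, adjusted Fisher p = 0.00479). Known m6A is sparse beside junctions inside the transcript.

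Runs of at least 5 equal bases within 10 bp, which disturb both base calling and the alignment of current, flanked 7.50% of KO-only sites, 6.08% of WT-only sites (1.41 points higher, interval 0.437 to 2.47, adjusted Fisher p = 0.00667), 6.48% of shared sites (adjusted Fisher p = 0.0441) and 7.93% of RRACH positions on the transcripts. For the pair of Tombo and MINES the shares were 5.82% and 5.22% and the difference did not pass the test (adjusted Fisher p = 0.909). For Tombo with Epinano they were 9.73% and 6.60% (adjusted Fisher p = 0.00476) and for Tombo with MINES and Epinano 13.3% and 4.64% (adjusted Fisher p = 0.00547). For Tombo with Nanom6A the order turned, at 6.02% and 10.2% (−4.21 points, adjusted Fisher p = 0.160), and for Tombo with m6Anet the shares were 7.04% and 6.02% (adjusted Fisher p = 0.931), neither passing.

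Values on both sides of the rule's threshold differed in motif and little in location. Positions in exactly 1 KO list had GGACT in 6.91% and GGACA in 10.2%, those in exactly 2 lists in 11.5% and 32.9%, and those in 3 or more lists in 22.9% and 30.7%. The share near the stop codon was 14.9%, 16.2% and 16.8% in the same order, and that in the last exon 48.3%, 47.1% and 49.3%. Runs of at least 5 equal bases within 10 bp flanked 7.44%, 7.13% and 12.7%. With at least 3 lists asked for, their share was 7.05 points higher in KO-only than in WT-only sites. The tools changed across the threshold too. Of the positions that only KO lists gave, 66.1% of those of MINES were KO-only sites, against 14.3% to 34.1% for the other tools. GGACA made up 58.1% of the KO-only sites that MINES listed, and from 5.50% (Nanom6A) to 35.35% (Tombo) of those that others listed. The part of the tools in the change of motif was not tested.

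Distances from KO-only sites to WT positions were counted, and shifts of a listing were not tested. A WT or comparison position lay within 5 bp of 21 KO-only sites (0.673%, against 1.02% of WT-only sites with a KO or comparison position as near), within 50 bp of 606 (19.4%) and within 100 bp of 885 (28.3%), whereas a KO or comparison position lay within 100 bp of 46.9% of WT-only sites. Another KO-only site lay within 50 bp of 130 of them. Of 3118 KO-only sites placed on a transcript, 1608 (51.6%) were in an exon with no WT position, 827 of these in genes that had WT positions elsewhere. The same share was not taken for all KO positions or for WT-only sites, and the rule itself removes positions listed in WT. Whether 51.6% is high for a KO position therefore cannot be read from it.

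In genes listed in both libraries, most KO-only sites lay between WT positions of the gene, a feature looked at after seeing the data. Of 2346 such sites, 1392 (59.3%) lay between them, against 8246 of 11175 WT-only sites (73.8%) between KO positions. Of the KO-only sites, 695 (29.6%, interval 27.8% to 31.5%) lay upstream of every WT position of the gene, and of the WT-only sites 1662 (14.9%, 14.2% to 15.5%) lay upstream of every KO position. Downstream of every position of the other library lay 11% and 11.3%. Native RNA is read from its 3′ end, and the share of reads that reached these 5′ parts was not analysed here.

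KO-only sites fell in 2120 genes, of which 1464 held 1, 441 held 2 and 215 held 3 or more. Of the 2120, 989 (46.7%) held a WT-only site too, against 4942 of all 9605 genes with a KO position (51.5%). A gene without a WT position cannot hold a WT-only site. Such genes were 455 of the 2120 (21.5%) and 1054 of the 9605 (11%), so the order of these shares follows in part from the rule and carries no meaning here. The 2120 genes had a median of 12 KO and 10 WT positions.

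Megf11 held most KO-only sites, 12 of its 27 KO positions, and had no WT position. It encodes a cell surface protein with many EGF-like domains that spaces neurons of the retina, and 11 of the 12 sites lay in coding sequence, 4 of them in exon 22 between 64697807 and 64697874 on chromosome 9. In H2-M5, a nonclassical MHC class I gene (24 KO and 9 WT positions), 7 of 8 lay upstream of every WT position, as did 7 of 7 in Mga (43 and 13), whose product pairs with MAX and represses germline genes, and 3 of these 7 lay in the last of 24 exons. In Adap1, which encodes a GTPase-activating protein for Arf6, 6 of 8 KO-only sites lay in the 3′ UTR of its last exon. Eif2ak4, the gene of the kinase GCN2 that phosphorylates eIF2α when amino acids are short, had all 6 in coding sequence from exon 3 to exon 37 of 39, and every 1 of them in a list by MINES. Sh3tc1 held 7 and the ankyrin-repeat gene Ankrd35 held 6, each without a WT position.

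The long noncoding RNAs 2410018L13Rik (8 KO-only sites, 34 KO and 19 WT positions) and Gm5165 (6, 29 and 12) had 11 and 14 KO positions by ELIGOS and none in WT, as other genes did, such as Zfp985 with 10 and 0. In Gm5165 all 6 sites were ELIGOS sites joined by Nanom6A or m6Anet in exon 4 of 4, and 5 of them repeat a sequence. The 5 are shown because their distances, 168 bp and 252 bp between sites of the same 5-mer, are multiples of 84 bp, a feature chosen after seeing the data. Capitals mark the 5-mer, and the sites lie on the plus strand of chromosome 17 (mm10) at 17264933, 17265101, 17265322, 17265490 and 17265742.
Gm5165 GAACT, first: atatcacaGAACTcttcagat
Gm5165 GAACT, next: atatcacaGAACTcttcgaat
Gm5165 AAACA, first: atgaatgtAAACAatgtggca
Gm5165 AAACA, next: atgaatgtAAACAatgtggta
Gm5165 AAACA, last: atgaatgtAAACAatgtggca
Reads of such repeats can be placed on a wrong copy, so these sites are uncertain.

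Genes with KO-only sites and no WT position at all numbered 455, which is 21.5% of the 2120. Over all 9605 genes with a KO position, 1054 had no WT or comparison position (11%), and over the 9518 with a WT or comparison position, 967 had none in KO (10.2%). In the mirror set, 513 of 5455 genes with WT-only sites (9.40%) had no KO position. Such genes were counted because a listing needs reads of the transcript, but the lists give no read numbers, and whether these genes were more expressed in KO was not measured here. The rule itself favours genes with few WT positions, so these shares carry no test.

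The 455 genes held 781 KO-only sites (25.0%). They had a median of 7 KO positions, against 12 for all genes with KO-only sites and 9 for all genes with a KO position, and 330 of them had at least 5, 124 at least 10 and 13 at least 20. By type, 429 were protein-coding and 15 long noncoding RNAs. Among all genes with a KO position, having no WT position became rarer with the number of KO positions. It was found in 39.3% of genes with 1 KO position, 25.1% with 2 to 4, 11.6% with 5 to 9, 3.97% with 10 to 19 and 0.954% with 20 or more. The mirror had 166 genes with at least 10 WT positions and none in KO, led by Itpr1, a calcium channel of the endoplasmic reticulum, with 28, and followed by Armh4, Zfp867 and the desmosome gene Pkp2 with 27 each and the mismatch repair gene Pms2 with 26.

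Among the 20 genes with KO-only sites, no WT position and most KO positions, Itgav, the αV integrin that binds fibronectin and vitronectin, came first with 29, of which 17 were given by Tombo and 12 by Epinano, with 4 KO-only sites. Megf11 and the photoreceptor cadherin gene Cdhr1 had 27 each, with 12 and 4 KO-only sites. Adam23, a neural ADAM protein that binds integrins, had 19, Npr3, the clearance receptor for natriuretic peptides, had 20, and Ifnar1, a subunit of the type I interferon receptor, had 19. Of the 3 KO-only sites of Ifnar1, 2 lay in the 3′ UTR, and all 3 were GGACA given by Tombo and MINES.

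Of the same 20 genes, Eif2ak4 had 22 KO positions, Adap1 20 and the kinase gene Pkn3 19, and Sos2, an exchange factor that activates Ras, had 19. Fbxw7, the part of a ubiquitin ligase that marks cyclin E and Myc for destruction, had 20 with a single KO-only site, in the 5′ UTR, and the deubiquitinase gene Usp31 had 22 with 4. Nav1, a microtubule-binding protein of growing neurons, had 25, Ift80 of the ciliary transport machinery 22 and Ehbp1 of endocytic recycling 20. The rest were Ankrd35 (21), Sh3tc1 (20), the zinc finger gene Zfp62 (19, all 3 KO-only sites in the 5′ UTR), the noncoding Gm30948 (19) and Crat, the carnitine acetyltransferase of mitochondria (18). The last place was a tie, as Fam208b, Prex2 and Dnmt3b also had 18 KO positions, KO-only sites and no WT position. In all 20 genes Tombo gave more KO positions than any other tool, from 13 to 25.

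Zscan4 genes, which are switched on when embryonic stem cells pass through a state like the 2-cell embryo, were listed in KO alone. Of 14 genes of the 2-cell-like list with a position, 9 had KO positions without a WT position and none had the reverse (11% and 10.2% over all genes). All of these 9 but Gm6763 were Zscan4 copies, so they are not 9 separate observations. KO-only sites stood in 6 of the 14 (42.9%, against 22.1% of all genes with a KO position), of which 4 had no WT position: Zscan4f (15 KO positions, 4 KO-only sites), Zscan4d (15 and 1), Zscan4c (13 and 2) and Zscan4-ps2 (13 and 4). These copies on chromosome 7 are near-identical. Sites recur at the same distance from the stop codon, at −1642 nt in Zscan4c, Zscan4d and Zscan4-ps2 and at −896 nt and −779 nt in Zscan4f and Zscan4-ps2, so the copy that a read came from is uncertain and the 4 genes are not separate observations. The list was made by name and takes in Eif1ad, a gene outside this state that held 2 KO-only sites, and Tmem92 held 1. It also takes in Eif1a and Eif1ax, which held no KO-only site.

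Primed-state genes rise as cells leave the naive state. Of the 16 symbols on this list, 7 had no position in either library (Cer1, Fgf5, Lef1, Oct6, Pou3f1, T and Zic2). Of the 9 with a position, 3 held KO-only sites and 4 had KO and no WT positions, where the shares over all genes were 22.1% and 11%. Dnmt3b, a de novo DNA methyltransferase, had 18 KO positions and no WT position, with its KO-only site in the 3′ UTR at chr2:153687477 (AAACA, given by Tombo, Nanom6A and Epinano). Foxd3, a transcription factor of pluripotent and neural crest cells, had 4 KO positions, 2 of them KO-only sites in its single exon. Zic5, with 13 KO and 14 WT positions, held 1, and Sall2 had 7 KO positions without a KO-only site. Otx2 (15 WT and 6 KO positions), Dnmt3a (12 and 8) and Nodal (21 and 19) had more WT positions and no KO-only site, and Otx2 held 6 of the 9 WT-only sites of the list, against 4 KO-only sites. None of the 9 had WT positions alone. The list summed to 63 positions in WT and 88 in KO, of which Dnmt3b gave 18.

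The m6A machinery had KO-only sites in 8 of 19 genes (42.1%), against 2120 of 9605 genes with a KO position overall (22.1%). Among them Ythdc2, an RNA helicase that binds m6A in the germline, had 8 KO positions and no WT position. Rbm15, which guides the methyltransferase to its targets, had 22 KO and 3 WT positions. The readers Ythdf1, Ythdf2 and Ythdf3 each held KO-only and WT-only sites. The list held 65 WT-only and 9 KO-only sites, where the sums over all genes were 12433 and 3128.

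Zinc finger genes, many of them repressors of transposable elements, had KO-only sites in 74 of 240 genes (30.8%, against 22.1% of all genes). They were without a WT position in 27 of the 74, with Zfp62 (19 KO positions), Zfp362 and Zfp948 (16 each) and Zfp37 (15) on top and down to Zfp526 with 2. Over the list, 67 genes had KO and no WT positions (27.9%, against 11% of all genes) and 27 had the reverse (13.5%, against 10.2%). The list takes in the 4 Zscan4 genes above. These genes share repeats, and sites in close copies are uncertain.

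Genes of general cell functions held KO-only sites in shares on both sides of the 22.1% of all genes. The ribosomal, proteasome, respiratory chain, cytoskeleton, translation, chaperone, splicing and cell cycle lists were taken mostly by how gene names begin. They can therefore hold genes of other functions, such as Cdkal1 and Cdc42bpa on the cell cycle list. KO-only sites stood in 7.92% of 101 ribosomal protein genes (taken by name, with the S6 kinase genes Rps6kb1 and Rps6kb2 among the 8), 7.32% of 41 proteasome genes, 7.41% of 108 respiratory chain genes and 10.6% of 47 cytoskeleton genes, with Mylip, a ubiquitin ligase for the LDL receptor, listed in KO alone. Over the cytoskeleton list 2 genes had KO positions alone, and 4, named after seeing the values, had WT positions alone: Anxa3, Krt7, Myl4 and Tagln. Translation factors stood at 13.8%, where Eif2ak4 and Eif4e1b, an oocyte form of the cap-binding protein (10 KO positions, 3 KO-only sites), had no WT position. Chaperones stood at 17.6%, splicing factors at 20.3% and cell cycle genes at 15.2%. Over the chaperone list 3 genes were listed in KO alone, Dnajc27 (15 and 4), Dnajb4 (6 and 2) and Dnajc5b. In WT alone there were 3, Dnaja4, Dnajc6 and Hspa4l (4.41% each way). Over the cell cycle list 4 genes were listed in KO alone, the kinase gene Cdk6 (8 and 3), Cdc14b, Cdc42bpa and Mcm9 (4.35%). In WT alone there were 3, Cdk17, Cdkal1 and Cdkn1c (3.30%). Over all genes these shares were 11% and 10.2%. Amino acid and stress response genes stood at 25% (4 of 16), with the transcription factor gene Atf5 (8 and 1) listed in KO alone and Atf3 in WT alone, p53 targets at 33.3% (6 of 18), glycolysis at 15.8% (3 of 19) and cholesterol and lipid synthesis at 13% (3 of 23), the last 3 with no such gene among those with KO-only sites.

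Among genes of KO-only sites that had WT positions, some tools listed more genes in KO alone and others more in WT alone. Nanom6A listed 267 of these 1665 genes in KO and not in WT and 75 in WT and not in KO, m6Anet listed 328 and 68, and MINES 331 and 127. Epinano went the other way with 51 and 235, as did ELIGOS with 140 and 243 and xPore with 49 and 236, and Tombo listed 112 and 0. Over all genes the numbers were 592 and 756 for Nanom6A and 869 and 879 for m6Anet, 1069 and 1927 for MINES, 947 and 2928 for Epinano, 336 and 1894 for ELIGOS, 272 and 1265 for xPore and 1140 and 917 for Tombo. The rule picks genes with KO listings, which bears on these counts.

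Chromosomes differed in their share of KO-only sites, a split looked at after seeing the data and without a test. KO-only sites made up 20.1% of KO-only and WT-only sites together. On chromosome 2, with Mga, Itgav, Eif2ak4, Dnmt3b, Pkn3 and Crat, they made up 28.2% (342 sites), and on chromosome 3 26.5%. They were scarcest on chromosomes 8 (10.8%), 11 (12.8%), 6 (13.3%) and 14 (15.3%). On these 4 chromosomes together the share was 12.7% (interval 11.8% to 13.8%), against 22.8% (22.1% to 23.6%) on all others, and within exactly Tombo and MINES it was 38.3% against 51.5%. Genes without a WT position numbered 71 on the 4 chromosomes and genes of the mirror 148, whereas elsewhere there were 384 and 365. Of genes with any position, 17.7% had more KO than WT positions on the 4 chromosomes and 32.1% elsewhere. Whole lists moved with this: Tombo gave 0.793 KO positions per WT position on the 4 chromosomes and 0.943 elsewhere, Nanom6A 0.630 and 0.919, while xPore gave 0.446 in both. In stretches of 30 Mb along these 4 chromosomes the ratio for Tombo ranged from 0.700 to 0.926. What sets these chromosomes apart was not tested.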

How the data were processed

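The authors deposited 17 lists of positions, made by base calling, alignment to the mouse transcriptome, 1 run of each tool and conversion to mm10. The deposited values are positions only, and the thresholds behind the lists are not stated with them. A site here was a unique position and strand. Gene and exon came from the transcript named in the lists, placed with GENCODE M21 (99.95% of transcripts found), and sequence came from GRCm38. Shares have Wilson intervals and their differences Newcombe intervals, and each difference was put to a two-sided exact Fisher test, with p-values adjusted by Benjamini-Hochberg (threshold 0.05): over the 18 features and both comparison sets, for features added after seeing the data over their own tests, and for each pair of tools over the features of that pair against WT-only sites. Checks of the tests on simulated data are not reported here. Genes and sites named come from the 10 sites in most KO lists, the 10 genes with most KO-only sites, the 20 genes without a WT position with most KO positions, 5 mirror genes, Mettl3, and genes of the gene lists with a KO-only site and no WT position. Other genes, such as further members of the gene lists and Zfp985, were named after their values were seen. Members and gene lists were chosen with earlier results of these data known. Alternatives changed the number of lists, the tools, the matching of positions, the windows, the comparison set and the gene assignment. The tests came from scipy 1.17.1 and the tables from pandas 2.3.3 under Python 3.11.15, and pysam 0.24.0 read the sequences.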

Additional observations from a re-analysis of the deposited data

How the results depend on the processing

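The number of KO-only sites moved with Tombo, with MINES and with the number of lists asked for. It was 759 without Tombo, 1743 without MINES and 205 with at least 3 lists in place of 2, and the genes without a WT position numbered 83, 261 and 58. In the 6 other alternatives for sites and the 8 others for genes the counts stayed within 1.5 times those reported. Within sites of exactly Tombo and MINES, the differences from WT-only sites no longer passed the test: −1.78 points for GGACT (adjusted p = 0.456), −3.39 points for the stop codon (0.0658) and 0.606 points for homopolymers (0.909). Other combinations of tools were added after seeing the data. For exactly Tombo and m6Anet GGACT turned, to 0.251 points (adjusted p = 1), with −6.16 points for the stop codon (0.172) and 1.02 for homopolymers (0.931), none passing. For exactly Tombo and Nanom6A homopolymers turned, to −4.21 points (0.160), with −0.862 for GGACT (0.796) and −4.77 for the stop codon (0.316). For exactly Tombo, MINES and Epinano, −6.01 points for GGACT (0.799) and −10.7 for the stop codon (0.124) did not pass. The cause was not tested. In the remaining alternatives, 11 for GGACT, 13 for the stop codon and 13 for homopolymers, the differences kept their direction and passed, from −28.0 to −4.09, −19.2 to −7.44 and 1.02 to 8.63 points. Leaving out chromosomes 6, 8, 11 and 14 was also chosen after seeing the data. No paired analysis was possible because each condition has 1 library. Without read numbers, an unlisted position cannot be told from one with too few reads, and a count of lists depends on each tool's threshold.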

Other observations

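Histone and imprinted genes stood on the other side. Of 40 histone and high-mobility-group genes with a position, 17 had WT and no KO positions (43.6% of those with a WT position, against 10.2% over all genes) and 1 had the reverse, and H1f0, the linker histone of resting cells, was the only gene with KO-only sites (2). Of 23 imprinted genes with a position, 7 had WT and no KO positions (31.8%), among them Peg3 (6 WT positions), Rian (4) and the cell cycle inhibitor gene Cdkn1c (3). All WT positions of these 3 came from Epinano, which listed 44559 positions in WT and 15112 in KO. Only Ube3a, a ubiquitin ligase silenced on the paternal allele in neurons, had KO positions alone (5), and only Gnas, which encodes the stimulatory G protein subunit, held a KO-only site. H19 had 27 WT and 9 KO positions. These genes were chosen after seeing the data, and no test was made.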
